A study of Homo sapiens with 12 samples.

Results

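Within the acetylated regions of a human myeloma cell line, 12976 of 43630 consensus regions lay deep inside genes. A consensus region is a stretch of the genome, merged from the peaks of all 12 libraries, that carried a peak in at least 6 of them. It counted as deep when it lay wholly inside the span of a protein-coding gene of the RefSeq hg38 table and more than 10 kb from either end of every such gene. The remaining consensus regions comprised 11704 within 1 kb of a gene end, 8281 between 1 and 10 kb from one, and 10669 outside genes by more than 10 kb. The choice used positions and the number of libraries only, not any difference between groups.

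RPMI 8226 is an established human multiple myeloma line, a cancer of antibody-secreting plasma cells. Acetylated lysine 27 of histone H3 (H3K27ac) was profiled by CUT&RUN, in which an antibody guides a nuclease that releases the DNA around the mark, with 100000 cells per assay. Scramble control cells and CEBPB knockout cells were each treated with 10 µM dexamethasone for 2 h or with DMSO, giving 4 groups of 3 libraries. The labels do not say if the knockout line is a clone or a pool, or if replicates were grown as separate cultures. The p-values therefore measure the spread between these libraries, which may be technical, and differences between the 2 genotypes are differences between these 2 lines. CEBPB itself held no deep region, so nothing here checks its disruption.

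H3K27ac marks active enhancers and promoters. Inside long genes it can mark enhancers that act on the host gene or on another gene, and also alternative promoters of the host. Dexamethasone is a synthetic glucocorticoid used to treat myeloma: it binds the glucocorticoid receptor, which then binds DNA and recruits acetyltransferases. CEBPB encodes C/EBPβ, a leucine zipper transcription factor.

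Each library held between 41164 and 56421 peaks on chromosomes 1 to 22 and X, covering 47.97 to 66.40 Mb. Read numbers are not given in the files, so depth is unknown. The quantity tested below is the length of a region covered by peaks in a library, which is the extent of acetylation and not its height. Where peak height is meant, the text says fold enrichment, the authors' value for a peak over its background, averaged over the peak's length. A region with several peaks in a library takes the highest of their values. In fits on this scale, a region without a peak is set to no enrichment.

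Most deep regions held no listed transcription start, but some did, and a few of these carried results described below. The sequences are the 250 bases before such a start, from RefSeq (GRCh38.p14), 5′ to 3′ along the strand of the transcript. CG dinucleotides are in capitals because internal starts in deep regions held more of them than the other internal starts. The first 4 are starts of the host gene in regions that responded to dexamethasone, the next 2 are starts of non-coding RNAs in regions that differed between the genotypes, and the last is an internal start in one of the regions of highest fold enrichment.
ANKRD28, hg38 minus strand, chr3:15797980-15798229: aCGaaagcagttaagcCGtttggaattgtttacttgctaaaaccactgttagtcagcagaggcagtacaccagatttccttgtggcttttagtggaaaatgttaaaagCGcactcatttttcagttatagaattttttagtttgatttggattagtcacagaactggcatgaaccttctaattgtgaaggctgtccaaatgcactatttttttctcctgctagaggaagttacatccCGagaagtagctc
CPNE5, hg38 minus strand, chr6:36765796-36766045: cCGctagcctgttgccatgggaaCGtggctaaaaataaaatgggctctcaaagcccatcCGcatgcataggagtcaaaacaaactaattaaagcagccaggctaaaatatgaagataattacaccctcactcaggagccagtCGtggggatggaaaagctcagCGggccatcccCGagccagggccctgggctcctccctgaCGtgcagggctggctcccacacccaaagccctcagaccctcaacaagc
ABLIM1, hg38 minus strand, chr10:114768305-114768554: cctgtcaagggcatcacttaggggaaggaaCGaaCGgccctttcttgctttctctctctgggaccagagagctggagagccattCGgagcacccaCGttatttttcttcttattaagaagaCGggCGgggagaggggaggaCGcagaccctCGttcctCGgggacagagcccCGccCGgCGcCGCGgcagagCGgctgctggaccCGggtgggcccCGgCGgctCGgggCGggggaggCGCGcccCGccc
IL16, hg38 plus strand, chr15:81296720-81296969: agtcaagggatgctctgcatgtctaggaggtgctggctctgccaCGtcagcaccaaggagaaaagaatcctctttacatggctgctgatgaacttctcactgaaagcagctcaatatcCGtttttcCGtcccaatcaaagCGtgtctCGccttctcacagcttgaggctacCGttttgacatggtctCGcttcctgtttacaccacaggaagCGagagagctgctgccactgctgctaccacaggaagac
CACNB2-AS2, inside CACNB2, hg38 minus strand, chr10:18261505-18261754: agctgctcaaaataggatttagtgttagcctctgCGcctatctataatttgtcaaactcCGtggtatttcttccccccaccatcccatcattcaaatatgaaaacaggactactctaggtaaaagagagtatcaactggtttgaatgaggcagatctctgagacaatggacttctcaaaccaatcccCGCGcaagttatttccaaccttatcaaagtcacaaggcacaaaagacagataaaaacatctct
LOC105371354, inside WWOX, hg38 plus strand, chr16:78608227-78608476: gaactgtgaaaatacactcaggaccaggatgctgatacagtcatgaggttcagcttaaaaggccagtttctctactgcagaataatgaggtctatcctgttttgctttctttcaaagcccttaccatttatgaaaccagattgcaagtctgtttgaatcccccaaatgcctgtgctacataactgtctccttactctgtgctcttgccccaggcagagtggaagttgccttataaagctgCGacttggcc
ACYP2, hg38 plus strand, chr2:54115365-54115614: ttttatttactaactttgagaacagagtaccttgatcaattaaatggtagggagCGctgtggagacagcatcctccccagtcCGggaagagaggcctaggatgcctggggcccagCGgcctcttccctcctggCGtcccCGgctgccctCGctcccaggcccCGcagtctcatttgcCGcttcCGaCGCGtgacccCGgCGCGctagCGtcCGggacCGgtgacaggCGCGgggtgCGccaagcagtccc
These 7 windows ranged from 38.8% G and C with 4 CG dinucleotides (ANKRD28) to 67.2% with 23 (ABLIM1). CPNE5 had 54.8% with 7, IL16 51.6% with 8, CACNB2-AS2 40.8% with 4, LOC105371354 44.8% with 1 and ACYP2 63.6% with 20.

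The deep regions fell into 4418 host genes, out of 10990 protein-coding genes longer than 20 kb, the shortest span that can hold one. The hosts were long: their median length was 95.3 kb, against 58.5 kb for all genes over 20 kb. There were 1964 hosts with 1 deep region, 2239 with 2 to 9 and 215 with 10 or more. As a description across genes, which are not independent replicates, the number of deep regions followed host length with Pearson r = 0.406 and Spearman rho = 0.474. A deep region lay inside 1 gene in 12802 cases and inside 2 or more overlapping genes in 174.

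The regions themselves had a median length of 1946 bp (quartiles 1313 and 2814, range 305 to 16386 bp). The median distance to the nearest gene end was 35.4 kb, and 2149 lay more than 100 kb from every gene end. The farthest lay 1227.8 kb away. Along hosts with a listed strand, the part of the gene that could hold a deep region was divided into 5 equal stretches from the 5′ end. These held 21.1%, 21.3%, 20.1%, 18.5% and 19.0% of the regions, a nearly even spread. Without a genome sequence of this build, exons and introns were not separated.

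Peaks were present in all 12 libraries at 5737 deep regions (44.2%) and in exactly 6 at 2195 (16.9%). The libraries' threshold fell on a continuous range of values. With peaks in 6 libraries the median covered length, averaged over the 12 libraries, was 450 bp and the median fold enrichment where present was 3.10, and the 1791 regions with peaks in 5 libraries had 310 bp and 2.95. Regions in all 12 libraries had 1255 bp and 4.02. Near the distance threshold, the covered length was 827 bp at 10 to 11 kb from a gene end (469 regions) and 848 bp at 9 to 10 kb (470 regions). The deep regions carrying a peak were compared between libraries by their overlap, as the shared number over the number in either. This was 0.812 ± 0.018 (SD, 12 pairs) within a group, 0.804 ± 0.021 (18 pairs) between treatments of a genotype and 0.690 ± 0.033 (18 pairs) between genotypes under 1 treatment.

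Deep regions had lower fold enrichment and less covered length than gene ends. Against regions outside genes they had lower fold enrichment but more covered length. In each library the median fold enrichment of the peaks in deep regions was 3.47 ± 0.089 (SD, n = 12), against 4.70 ± 0.22 at gene ends and 3.82 ± 0.094 outside genes. The median covered length was 1034 ± 41 bp, against 1377 ± 39 bp at gene ends and 959 ± 39 bp outside genes. These 4 differences had the same sign in all 12 libraries (exact sign-flip permutation test over libraries, two-sided p = 0.00049, the smallest it can give, adjusted p = 0.00176). A peak was present at 81.4 ± 3.7% of deep regions, at 95.0 ± 1.3% of gene ends (difference −13.6 percentage points, adjusted p = 0.00176) and at 82.6 ± 3.4% of regions outside genes (−1.21 points, exact permutation, adjusted p = 0.0246). The last difference was not general: in knockout DMSO libraries the means were 83.2% in deep regions and 82.6% outside genes, and with deep regions beyond 25 kb from gene ends it was −0.711 points (exact permutation, adjusted p = 0.0979). The rule admits regions of every class by presence, so the tests on presence are not independent of it. Deep regions held 23.6 ± 0.64% of the covered length of a library.

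Neither treatment nor genotype moved these library-wide measures of deep regions past the threshold. The share of deep regions with a peak was 83.1 ± 3.6% in scramble cells under DMSO and 79.1 ± 5.0% under dexamethasone, and 83.2 ± 3.3% and 80.2 ± 2.9% in the knockout (SD, n = 3 each). The 8 exact permutation tests, stratified by the other factor, gave adjusted p from 0.44 to 0.835. Measured against other regions of the same library, some shifts passed. Presence in deep regions minus presence outside genes was 2.14 points higher in the knockout, where the shortfall of deep regions nearly closed, and fell by 1.39 points with dexamethasone, so that the shortfall widened (exact permutation, p = 0.005, the smallest it can give, adjusted p = 0.01125 each). The rule admitted 681 deep regions through the scramble libraries alone and 416 through the knockout libraries alone. Such regions enter the genotype shift in presence, so it supports nothing by itself. The dexamethasone shift was −0.470 points with strong peaks only (exact permutation, adjusted p = 0.163), −0.712 beyond 25 kb (0.0655) and −0.331 with regions in 9 or more libraries (0.3). The shortfall of deep regions against gene ends in fold enrichment was 0.267 smaller in the knockout (exact permutation, adjusted p = 0.02455). These shifts are smaller than the differences between deep regions and gene ends.

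**Figure D1:**
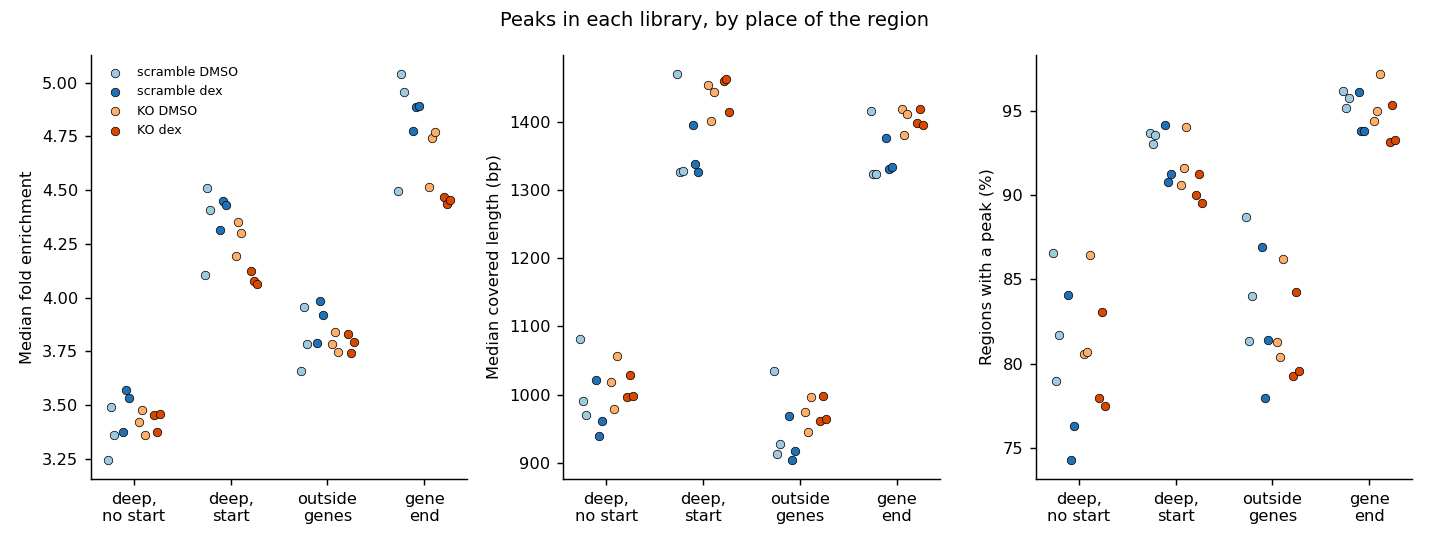
Median fold enrichment, median covered length in bp and share of regions with a peak in percent, 1 point per library, for deep regions without and with a listed transcription start, regions outside genes and regions at gene ends; colours mark the 4 groups of 3 libraries. Deep regions with a start lie between the other deep regions and the gene ends in fold enrichment and in presence.

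Internal transcription starts set a minority of deep regions apart. A listed RefSeq start lay in 823 deep regions (6.34%), compared with 69.2% of the regions at gene ends and 5.11% outside genes. In 545 of them the start belonged to the host gene, in 175 to another gene, often a non-coding RNA, and in 103 to both. Starts of other genes ran on the strand opposite to the host in 220 cases and on the same strand in 32. The comparison by starts was added after seeing the data. Regions with a start had a median fold enrichment of 4.28 ± 0.159 per library and a covered length of 1401 ± 58 bp (SD, n = 12), against 3.43 ± 0.089 and 1003 ± 41 bp without. A peak was present at 92.0 ± 1.6% and 80.7 ± 3.9% of them. The differences of 0.850 in fold enrichment, 398 bp and 11.3 points had the same sign in all 12 libraries (exact sign-flip permutation test, adjusted p = 0.00146 each).

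How often a region with a start carried a peak varied with the gene the start belonged to. Peaks were present in all 12 libraries at 78.0% of regions with a host start, 58.3% with a start of another gene, 84.5% with both and 42.2% with none. Looked at from the starts, 4763 listed starts lay deep inside genes and 23.2% of them fell in a deep region. Their windows of 300 bases were richer in G and C at starts in a deep region. The median was 61.0% with 17 CG dinucleotides for these 1105 starts, and 47.3% with 4 for the other 3658. The other starts can still lie under peaks seen in fewer than 6 libraries. Of starts with under 45% G and C, 8.48% were in a deep region, and the share was 17.1% from 45 to 55%, 32.0% from 55 to 65% and 51.7% at 65% or more. The ANKRD28, CACNB2-AS2 and LOC105371354 windows printed above lie in deep regions although each has under 45% G and C.

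Motifs were searched in the 250 bases before each start, on both strands. AGAACA, the hexamer repeated in the glucocorticoid receptor's element, was found in 10.7% of the windows in deep regions, 18.9% of the deep starts outside them and 12.4% of all 34961 windows. The full element, both hexamers as an inverted repeat with a spacer of 3 bases, occurred in 0.003% of all windows and in none of the deep ones. The C/EBP motif TTGCGCAA was found in 0.09% of windows in deep regions and 0.132% of all, and TTGCATCA in 0.543% and 0.769%. Of the 7 printed windows, only that of ACYP2 holds AGAACA, once, and none holds the other 3 motifs. A match is a description of letters and not a binding site.

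Dexamethasone changed few deep regions, and most of those that changed gained acetylated length. Averaged over both genotypes, 45 deep regions in 41 host genes were higher (0.347% of the deep regions; 0.305% of all 43630 consensus regions) and 11 were lower (0.0848%; 0.0825% of all) at an adjusted p under 0.05 in limma, fitted to log2(covered bp + 500) over all regions. Both shares are close to those of all regions. In scramble cells alone 36 were higher (0.277%; 0.225% of all) and 13 lower (0.1%; 0.0779% of all), and in knockout cells 19 were higher (0.146%; 0.142% of all) and 7 lower (0.0619% of all regions were called lower). The median log2 difference over all deep regions was 0.02 for the average, and 0.02 over all regions. A deep region that carried peaks only in the 6 dexamethasone libraries had to differ: there were 11 of these, and 10 of them are among the 45. Such regions are described below by their values, with no test. Treated and untreated libraries did not overlap at 1240 deep regions in scramble cells (9.56%; 9.59% of all regions) and 1512 in the knockout (11.7%; 12.1% of all), shares close to those of all regions. The drug contrasts of the 2 genotypes use separate control libraries, and 10 regions were called higher in both.

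Known glucocorticoid targets were among the hosts with gained regions. ZBTB16, which encodes a zinc finger repressor, held 3 deep regions called higher. The region at chr11:114178568-114181109, 75.7 kb from the nearest gene end, had no peak in any of the 6 DMSO libraries. It was covered for 2.02, 1.67 and 2.07 kb in scramble cells and 2.54, 2.03 and 1.29 kb in knockout cells after dexamethasone. The region entered the set through the treated libraries alone. Another region of this kind lies at chr11:114079777-114081147, and a region with a peak in 1 DMSO library at chr11:114159369-114160616 (log2 1.30 ± 0.17, SE), so that the gain was found at 3 separate places within the gene. The last region entered the set almost wholly through the treated libraries, so it too is given without a test.

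FKBP5 encodes a co-chaperone that lowers the affinity of the glucocorticoid receptor for its ligand. Its region at chr6:35601786-35602933 had no peak in scramble cells under DMSO and 1.11, 1.12 and 0.921 kb with dexamethasone. In the knockout it was covered for 0, 0 and 0.257 kb under DMSO and for 0.497, 0.807 and 0.512 kb with the drug (average log2 1.40 ± 0.09). Treated and untreated libraries did not overlap in either genotype. The treated libraries alone could admit this region, so it is given by its values, with no test. SESN1, which encodes a stress-induced inhibitor of mTORC1 signalling, held one gained region at chr6:109063090-109065037 (log2 1.36 ± 0.19, adjusted p = 0.0168) and shares another, at chr6:109022705-109023735, with the overlapping gene ARMC2. That shared region was absent from all DMSO libraries and covered 0.839, 0.694 and 0.857 kb in treated scramble and 0.718, 0.852 and 1.03 kb in treated knockout cells.

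PHACTR3, a regulator of protein phosphatase 1 and actin, also gained at 3 places. At chr20:59783070-59787425 no DMSO library had a peak, and dexamethasone libraries held 2.07, 1.65 and 0.883 kb in scramble and 1.95, 0.955 and 2.84 kb in knockout cells. The regions at chr20:59819885-59821195 and chr20:59808484-59811075 rose by 1.38 ± 0.14 (adjusted p = 0.00297) and 1.62 ± 0.23 (adjusted p = 0.0223). The second of these was not empty before treatment, with 0.737 and 0.314 kb in 2 scramble DMSO libraries. Regions seen in every dexamethasone library and in no DMSO library also lay, among others, in ADGRV1, an adhesion receptor gene, NDUFAF6, MAP4K3, a kinase gene, SHISAL1 and POU2F1, which encodes the octamer factor OCT1.

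At ANKRD28, a subunit of protein phosphatase 6, the drug lengthened a region that was always present. The region at chr3:15794347-15798266, which holds the internal start printed above, was covered for 1.28, 1.00 and 1.27 kb in scramble and 1.27, 1.13 and 1.07 kb in knockout cells under DMSO. After dexamethasone these lengths were 3.92, 3.85 and 3.85 kb, and 3.85, 3.79 and 3.85 kb. This was the smallest p of the drug average among deep regions (log2 1.41 ± 0.05, adjusted p = 5.10e-06). The longer peaks had lower fold enrichment, 3.12 to 3.20 in scramble cells against 3.95 to 4.29 under DMSO, and on the fold enrichment scale the drug average was −0.30 (log2, adjusted p = 0.00468). So the covered stretch lengthened, and its fold enrichment, averaged over a longer peak, was lower. Whether the height fell within the original stretch was not tested. CPNE5, which encodes a calcium-dependent membrane-binding protein, also holds a start in its region at chr6:36764634-36766441. That region measured 0.726, 0.892 and 1.03 kb in scramble DMSO, 1.32, 1.68 and 1.51 kb in scramble dexamethasone, 0, 0 and 0.283 kb in knockout DMSO and 0.47, 0.47 and 0.354 kb in knockout dexamethasone libraries. It rose with the drug (0.74 ± 0.12, adjusted p = 0.031) and was lower in the knockout (−1.26, adjusted p = 3.01e-05).

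Some regions that gained length with dexamethasone in scramble cells were already covered in untreated knockout cells. Of the 45 regions higher with dexamethasone, 6 had no peak in scramble DMSO libraries but a peak in every knockout DMSO library: those in NR6A1, PXDN, REXO1, RSF1, TNFSF8 and TPD52. Leaving out 1 library ended the drug average of REXO1 in 12 of 12 fits, of RSF1 in 10 and of TPD52 in 2. TNFSF8 encodes CD30 ligand. Its region at chr9:114908164-114911152 was empty in scramble DMSO cells, held 1.15, 1.58 and 0.991 kb with dexamethasone, and held 2.74, 2.72 and 2.81 kb in knockout DMSO and 2.73, 2.91 and 2.92 kb in knockout dexamethasone libraries. In scramble cells it rose by 1.82 ± 0.11 (adjusted p = 0.000234), and the knockout libraries lay above all scramble libraries under either treatment. Of the 45, 12 were also called higher in the knockout under DMSO. The 2 calls share the scramble DMSO libraries, so their overlap is not read further.

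Other regions rose in scramble cells and had no peak in the knockout under either treatment. At TMTC1, a gene for a protein of the endoplasmic reticulum, the region at chr12:29741476-29744374 was covered for 0.424, 0.411 and 0.272 kb under DMSO and 2.50, 2.64 and 2.56 kb with dexamethasone in scramble cells, and for 0 in all 6 knockout libraries (scramble log2 1.97 ± 0.16, adjusted p = 0.000728). On the fold enrichment scale this drug difference was −0.26 (adjusted p = 0.893). Regions in DOCK5, MYH14, CNTN6 and EYA2 were likewise called higher in scramble cells and were empty in every knockout library. MRC1, the mannose receptor gene and a macrophage marker, rose from 0 to 1.58, 1.47 and 1.52 kb in scramble cells (log2 2.05 ± 0.19). In knockout cells it measured 0, 0 and 0.416 kb and then 0.367, 0.504 and 0.536 kb. The treated libraries alone could admit the MRC1 region, so it is given by its values, with no test. DGKB, a diacylglycerol kinase gene, measured 0, 0 and 0.31 kb and then 2.23, 2.15 and 1.82 kb in scramble cells (2.22 ± 0.30, adjusted p = 0.0161).

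Losses of covered length were fewer than gains. In scramble cells the region in PTK2B, which encodes the focal adhesion kinase relative PYK2, shrank from 2.17, 2.10 and 2.06 kb to 1.21, 1.21 and 1.19 kb (log2 −0.58 ± 0.05, adjusted p = 0.000889), while knockout libraries held 1.99 to 2.33 kb under either treatment. PARD3B, a cell polarity gene, fell from 2.51, 2.38 and 2.38 kb to 1.05, 1.05 and 1.01 kb (−0.89 ± 0.06, adjusted p = 0.000234). In knockout cells FADS2, a fatty acid desaturase gene, went from 2.14, 2.43 and 1.05 kb to no peak (−2.15 ± 0.24, adjusted p = 0.00797). CACNA2D2, a calcium channel subunit gene, went from 1.59, 1.74 and 1.13 kb to none (−1.94 ± 0.26, adjusted p = 0.0209), a call lost in 5 of 12 fits that left out a library. The regions with the IL16 and ABLIM1 starts printed above were called lower in covered length in knockout cells. IL16 went from 1.92, 1.86 and 2.09 kb to 1.04, 0.888 and 0.994 kb (−0.71 ± 0.08, adjusted p = 0.00803), and all scramble libraries lay between 0.846 and 1.09 kb. The IL16 difference turned to 0.43 on the fold enrichment scale and to 0.52 with equal covered length per library. That of ABLIM1 turned to 0.0228 on the fold enrichment scale, and its call was lost in 6 of 12 fits that left out a library.

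**Figure D2:**
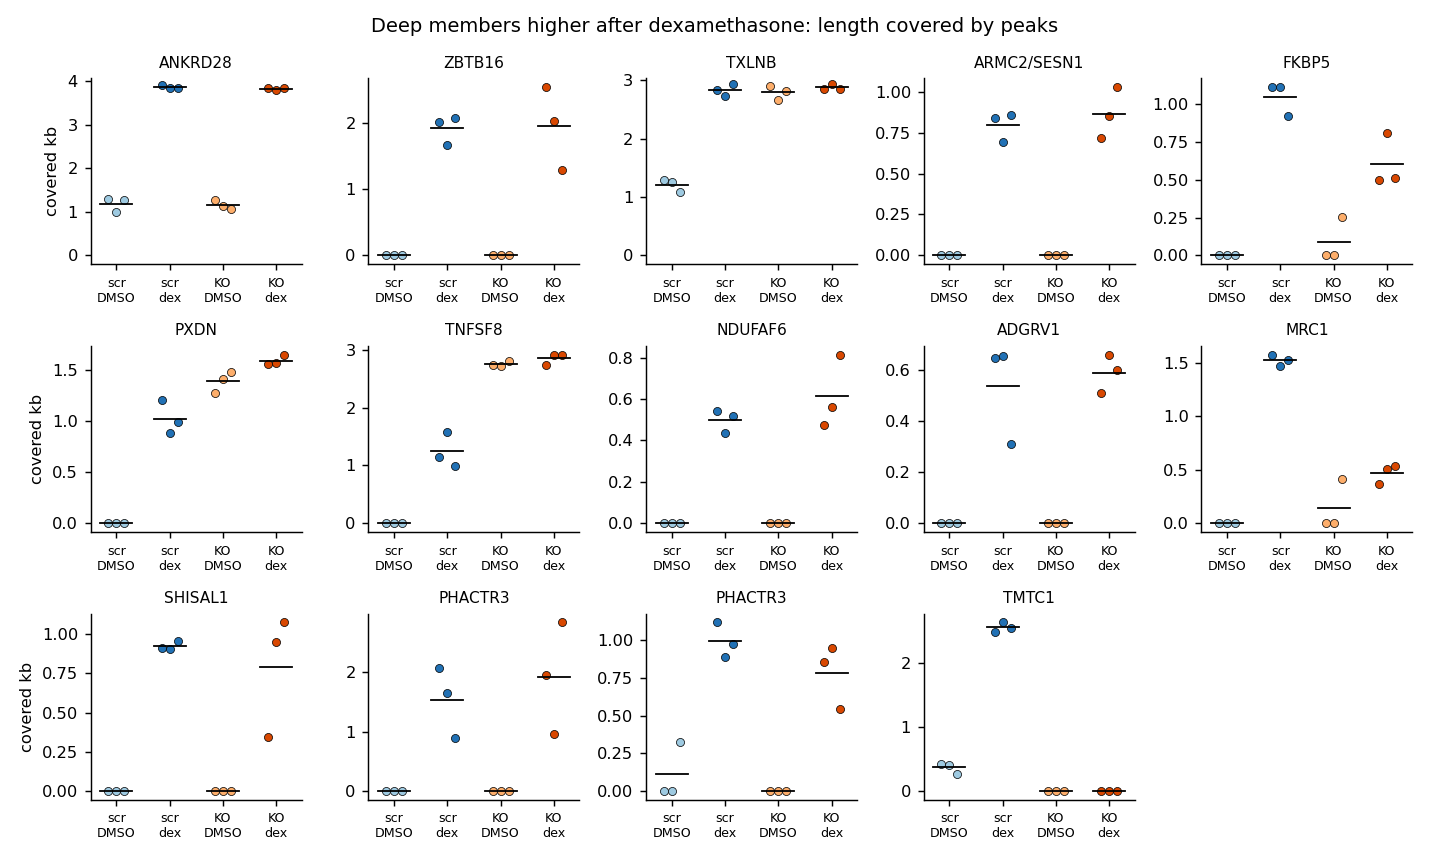
Covered length in kb in each library for 14 of the 15 deep regions of smallest adjusted p among those higher after dexamethasone on average; points are libraries, lines are means of 3, and scr and KO stand for scramble control and CEBPB knockout. ZBTB16, ARMC2/SESN1, NDUFAF6, ADGRV1, SHISAL1 and the first PHACTR3 region had no peak in any DMSO library, and TXLNB, PXDN and TNFSF8 were already covered in knockout DMSO cells.

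Of the 78 deep regions called in any drug comparison or in the difference of drug effects, 4 held a listed start, 18 were present in all 12 libraries and 20 in exactly 6. The calls depend on measuring extent. With fold enrichment in place of covered length, 39 of the 45 higher regions kept their direction and 23 were called again, as were 8 and 2 of the 11 lower ones. An unadjusted p under 0.05 for the drug average was found at 1093 deep regions (8.42%), close to the 8.26% of all regions. Some calls rest on single libraries. Leaving out 1 library at a time, 35 of the 56 calls of the drug average held in all 12 fits, 3 were lost in 1 to 6 and 18 in 7 or more, among them the third PHACTR3 region (7), CPNE5 and MAF (9) and MYH14 (10). In scramble cells DGKB was lost without replicate 2 under DMSO (adjusted p = 0.0529) or replicate 2 (0.0685) or 3 (0.0511) with dexamethasone.

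The drug response itself differed between genotypes at 17 deep regions in limma (7 with a higher and 10 with a lower response in the knockout; 0.0413% and 0.0481% of all regions). ADAM23, which encodes an integrin-binding membrane protein, had opposite responses in covered length. Its region at chr2:206479926-206483069 was covered for 3.07, 2.98 and 2.98 kb in scramble DMSO and 1.27, 1.15 and 1.17 kb in scramble dexamethasone libraries. In the knockout the order was turned, with 1.39, 1.15 and 1.31 kb under DMSO and 2.90, 2.91 and 3.06 kb with dexamethasone (difference of log2 responses 2.01 ± 0.07, adjusted p = 5.42e-06). Every library near 3 kb had 1 peak over the region, and every library near 1.2 kb had 2 peaks. On the fold enrichment scale ADAM23 turned, with a scramble response of 0.27 (limma adjusted p = 0.326) and a difference of responses of −0.43 (0.345). KCNQ5, a potassium channel gene, showed the same order: 2.62, 2.48 and 2.62 kb, then 1.54, 1.65 and 1.55 kb in scramble cells, and 1.62, 1.48 and 1.54 kb, then 2.15, 2.36 and 2.57 kb in the knockout (1.04 ± 0.10, adjusted p = 0.00427). CRIM1, which encodes a membrane protein that binds bone morphogenetic proteins, moved the other way. It rose from 0 to 0.961, 0.416 and 1.02 kb in scramble cells and fell from 2.09, 2.37 and 2.11 kb to 0.753, 0.461 and 0.268 kb in the knockout (−2.83 ± 0.30, adjusted p = 0.00763). On the fold enrichment scale, 2 of the 7 and 5 of the 10 kept their sign, and 3, all among the 10, were called again.

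**Figure D3:**
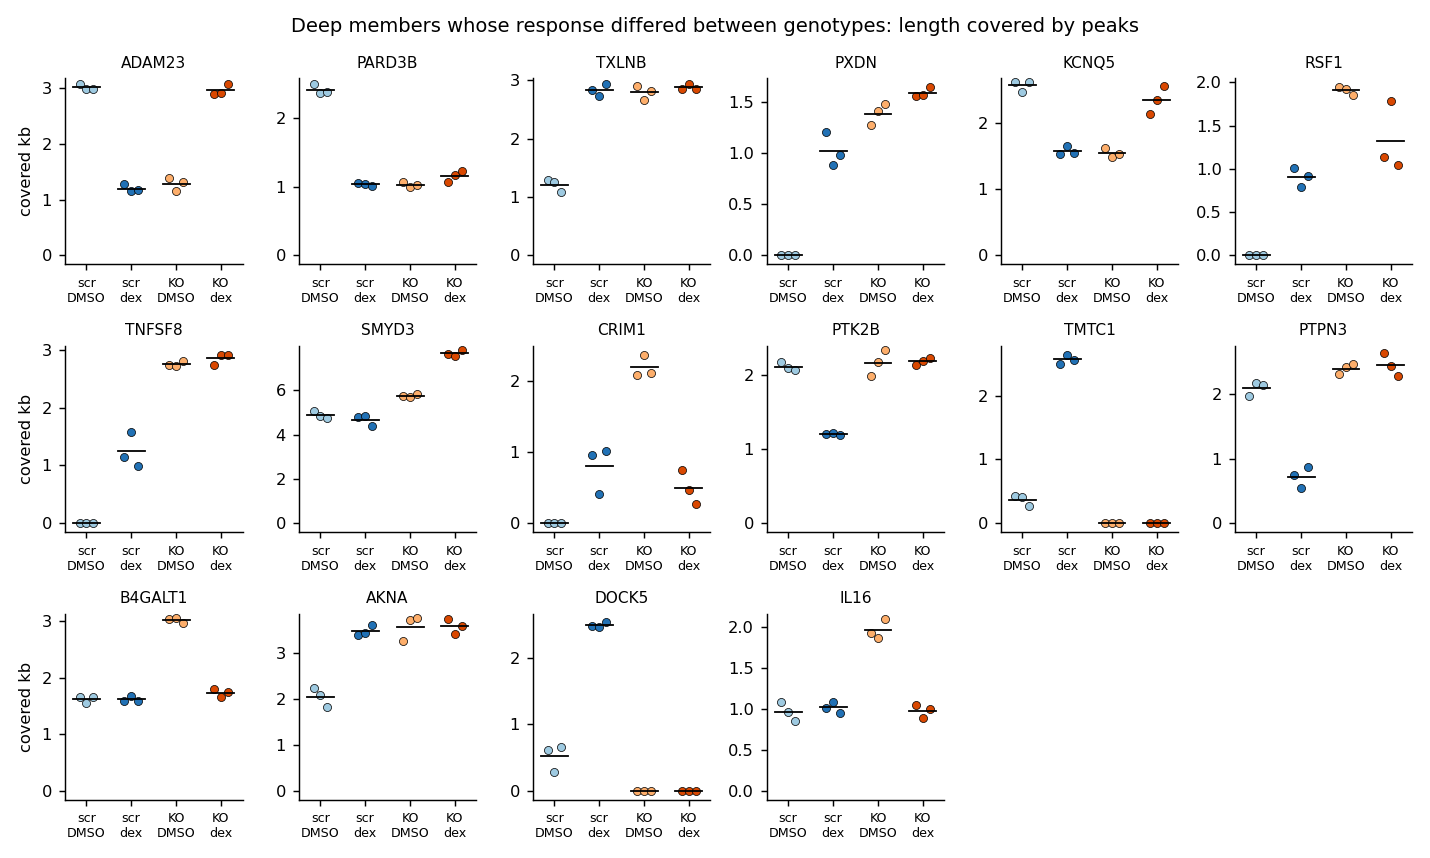
Covered length in kb in each library for 16 of the 17 deep regions whose dexamethasone response differed between scramble control (scr) and CEBPB knockout (KO) cells; points are libraries and lines are means of 3. ADAM23 and KCNQ5 fall in scramble and rise in knockout cells, CRIM1 does the reverse, and TMTC1 and DOCK5 are at 0 in all knockout libraries.

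Many more deep regions were called for genotype than for the drug. Averaged over treatments, 1272 were higher in the knockout (9.8%; 8.27% of all regions) and 1317 lower (10.1%; 8.19% of all). Under DMSO 746 were higher (4.85% of all regions were called higher) and 983 lower (5.72% of all), and under dexamethasone 887 were higher (5.6% of all) and 1000 lower (5.92% of all). Genotypes did not overlap at 3592 deep regions under DMSO (27.7%; 25.6% of all) and 4277 under dexamethasone (33.0%; 31.1% of all). Of the gene ends 503 were higher (4.3%) and 415 lower (3.55%), and of the regions outside genes 1188 (11.1%) and 1431 (13.4%). These shares were not tested against each other. The rule admits regions seen in 6 libraries, and 681 deep regions had peaks in all scramble and no knockout libraries and 416 the reverse, which had to differ. They are described by their values, with no test. Among the 11879 with peaks in both genotypes 856 were higher (7.21%) and 637 lower (5.36%), and among the 5737 present in all 12 libraries 231 (4.03%) and 212 (3.7%). The median log2 difference over deep regions was 0.01.

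The presence rule cannot have fixed the direction at regions with a peak in all 12 libraries, and the 2 largest differences there in each direction are given, a choice made after seeing the data. TMEM178B was covered for 1.96 to 3.76 kb in scramble and 0.316 to 0.631 kb in knockout libraries at chr7:141280291-141284228 (log2 −2.04 ± 0.13, adjusted p = 3.03e-06). The region in CTNNA3, a catenin gene, and the overlapping LRRTM3 at chr10:67071998-67077343 held 3.72 to 4.45 kb and 0.529 to 1.87 kb (−1.65 ± 0.12, adjusted p = 8.71e-06). In both the genotypes did not overlap. Among the gains, the region in PIK3R3, a regulatory subunit gene of phosphoinositide 3-kinase, at chr1:46114893-46118959 went from 0.268 to 1.09 kb in scramble to 0.526 to 3.83 kb in knockout libraries (1.45 ± 0.34, adjusted p = 0.015), and these ranges overlap. LHFPL2 at chr5:78538036-78540854 went from 0.274 to 0.508 kb to 0.896 to 2.38 kb without overlap (1.39 ± 0.19, adjusted p = 0.000623). These 4 calls held in all 12 fits that left out a library.

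The largest losses were regions with no peak in any knockout library, which entered the set through the scramble libraries alone. In RYR2, the ryanodine receptor calcium channel gene, the region at chr1:237183952-237187722 was covered for 3.57, 3.57 and 3.57 kb under DMSO and 3.58, 3.29 and 3.62 kb with dexamethasone in scramble cells, and had no peak in 6 of 6 knockout libraries. DSCAM, a neuronal adhesion gene, measured 4.37, 6.03 and 4.37 kb, then 4.32, 6.01 and 4.29 kb, and 0 in the knockout at chr21:40678528-40684559. Regions of the same pattern lay in GALNT17, a glycosyltransferase gene, PIEZO2, a mechanosensitive channel gene, SDK1, CTNNA3, ANKRD30A, SIPA1L2 and FAT1, an atypical cadherin gene.

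The largest gains were mostly regions with no peak in scramble libraries, which entered the set through the knockout libraries alone. In SMOC2, which encodes a matricellular calcium-binding protein, the region at chr6:168605071-168609495 had no peak in 6 scramble libraries and covered 3.76, 4.38 and 3.71 kb under DMSO and 3.76, 3.65 and 3.74 kb with dexamethasone in the knockout. FYN, which encodes a SRC family kinase, went from 0 in 6 libraries to 3.22, 3.32 and 2.81 kb and 2.78, 3.07 and 3.23 kb at chr6:111842182-111845838. Gains from 0 in all scramble libraries also lay in MCC, CDC14B, a phosphatase gene, and GREB1L. In CACNB2, a calcium channel subunit gene, the gained region at chr10:18260492-18265203 holds the CACNB2-AS2 start printed above and a start of the host. One scramble library had 0.302 kb there and the others none, and knockout libraries held 1.45 to 4.56 kb (log2 2.74 ± 0.29). The knockout libraries alone could admit this region, so it is given by its values, with no test. The WWOX region with the LOC105371354 start went the other way, from 2.52 to 2.63 kb in scramble libraries to none in the knockout.

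In some host genes most deep regions moved in 1 direction. Of 764 hosts with at least 5 deep regions, 55 had at least 50% of them called lower in the knockout (578 of their 740 regions) and 29 at least 50% called higher (168 of 228). Many of these regions carried peaks in 1 genotype only, which fixed their call, so the counts support nothing by themselves. Over regions with a peak in both genotypes, an alternative added after seeing the data, 16 of 699 hosts with at least 5 such regions were mostly lower (81 of 140 regions) and 6 mostly higher (23 of 40). Of all 764 hosts, 311 had no call, 405 had calls in 1 direction and 48 in both. The 405 include hosts with a single call, and calls fixed by presence in 1 genotype. Regions in 1 gene are neighbours and are not independent of each other. The 10 hosts with most deep regions show both kinds. DSCAM had 36, of which 21 were lower and none higher; CALN1, a gene for a calcium-binding protein, 35 with 28 lower; RBFOX1, a splicing factor gene, 34 with 28 lower and 2 higher; PTPRM 33 with 21 lower; RYR2 33 with 31 lower; PIEZO2 32 with 20 lower. AUTS2, a neurodevelopmental gene, had 32 and all 32 were lower. In contrast ADAMTS17 had 34 with 3 lower, KAZN 31 with 5 lower, and TRIO, a guanine exchange factor gene, 32 with 3 lower and 2 higher.

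**Figure D4:**
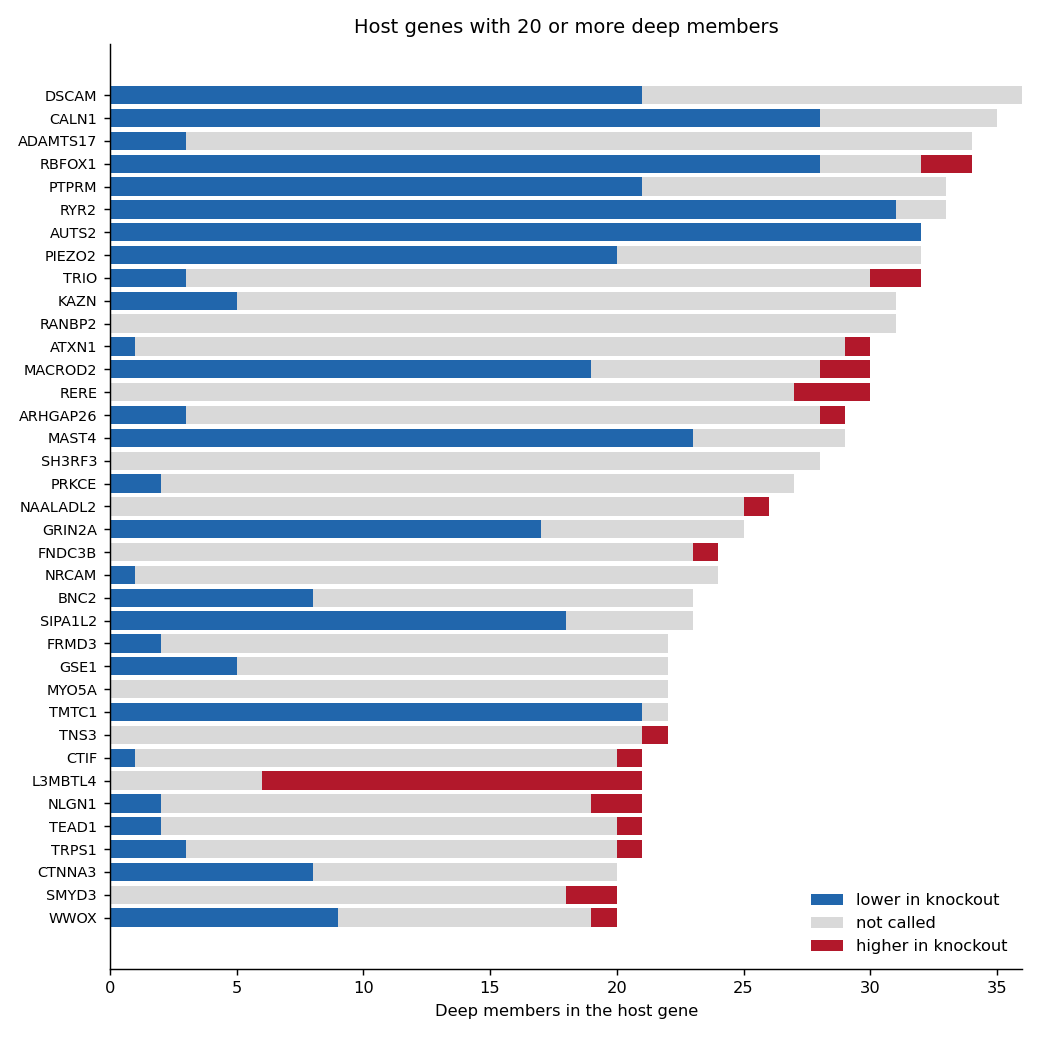
Number of deep regions per host gene, for hosts with 20 or more, split into those called lower in the knockout, not called and called higher (limma, average over treatments). AUTS2, RYR2 and TMTC1 are almost wholly lower, CALN1 and RBFOX1 mostly lower, L3MBTL4 is mostly higher, and RANBP2 and SH3RF3, whose listed spans overlap, have no call.

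Summed over its deep regions, AUTS2 was covered for 50.8, 41.7 and 38.9 kb in scramble DMSO and 45.9, 46.4 and 44.2 kb in scramble dexamethasone libraries and for 0 in all 6 knockout libraries. FAT1 held 23.5, 18.3 and 19.7 kb, then 21.7, 20.2 and 22.2 kb, and 0 in the knockout. RYR2 fell to a remnant of 2.32 to 5.18 kb, from 40.5 to 53.7 kb in scramble libraries. TRIO, where few regions were called, held 58.6 to 73.4 kb in scramble and 56.5 to 72.7 kb in knockout libraries, ranges that overlap. In the other direction FYN held 0 kb in scramble libraries and 8.70 to 12.3 kb in knockout libraries over 7 regions. L3MBTL4, which encodes a chromatin reader, rose from 4.21 to 8.82 kb to 25.1 to 31.4 kb over 21 regions, and STARD13 from 4.11 to 6.88 kb to 17.3 to 21.7 kb over 15. FAT1, FYN, L3MBTL4, STARD13 and TRIO are given here because of their values, and no test is made on these sums.

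The 5′ end of the host was compared with its deep regions. This comparison was added after seeing the data. Of the 55 mostly lower hosts, 36 had a strand and a consensus region at the 5′ end, and that region was lower in 30 and higher in 2. Of the 29 mostly higher hosts, 14 had one, which was higher in 7 and lower in 1. Where the 5′ region had a peak in both genotypes, it was lower in 16 and higher in 2 of 22 mostly lower hosts. In 11 mostly higher hosts it was higher in 4 and lower in 1. The hosts were still chosen over all their deep regions, including those with peaks in 1 genotype only. These counts therefore support nothing by themselves. Of all regions at gene ends, 4.3% were called higher and 3.55% lower. Another 22 hosts had no consensus region there and 12 no listed strand. At AUTS2 the 5′ region went from a mean of 1.93 kb in scramble to 0 in knockout libraries, at RYR2 from 2.63 kb to 0 and at FAT1 from 3.40 kb to 0. At FYN it went from 0.153 to 1.88 kb (adjusted p = 0.000303) and at GREB1L from 0 to 2.02 kb. DSCAM was an exception, where the 5′ region rose from 1.43 to 2.34 kb (log2 0.58, adjusted p = 0.0391) while 21 deep regions fell. At MCC the 5′ region fell from 2.03 to 1.16 kb (log2 −0.68, adjusted p = 0.0101) while 11 of its 18 deep regions rose.

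**Figure D5:**
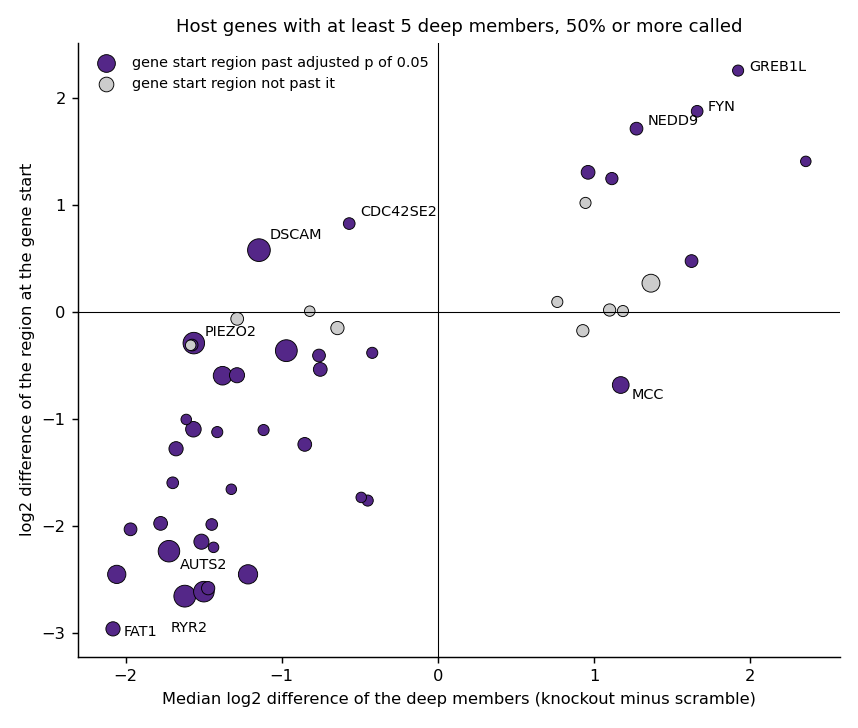
Log2 difference between knockout and scramble libraries of the consensus region at the 5′ end of a host gene, against the median log2 difference of its deep regions, for the 50 hosts with at least 5 deep regions of which at least 50% were called in 1 direction and with a consensus region at the 5′ end; larger points have more deep regions. Most lie in the lower left or upper right, and DSCAM, CDC42SE2 and MCC do not. Hosts were chosen over all their deep regions, including those with peaks in 1 genotype only.

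Gene lists were used to ask which kinds of host held the changed regions, with counts set beside the shares above. They were compiled with earlier results of these data known. The list of glucocorticoid-induced genes had 24 hosts with 114 deep regions, of which 10 rose with dexamethasone and none fell: 3 each in ZBTB16 and PHACTR3, 2 in SESN1 and 1 each in FKBP5 and TNFSF8. Of these 10, 4 carried peaks in the treated libraries only. Its median log2 difference for the drug was 0.06, against 0.02 over all deep regions. PHACTR3, TNFSF8 and AUTS2 entered this list from such earlier results, so its count is not independent evidence. Against genotype the same list had 3 regions higher and 41 lower, of which 32 are those of AUTS2. The plasma cell and myeloma list (28 hosts, 157 regions) had 2 regions higher with the drug, in POU2F1 and in MAF, which encodes a myeloma oncogenic transcription factor. The MAF region was empty in scramble DMSO libraries and measured 0.478, 0.569 and 0.629 kb with dexamethasone (average log2 0.93 ± 0.15, adjusted p = 0.0407). Against genotype 17 were higher and 12 lower, where 8.27% and 8.19% of all regions were called.

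In the lists of inflammation, survival and C/EBP genes the drug calls were too rare over all deep regions (0.432%) for a count of 0 in lists of this size to stand apart. In limma, none of the 55 deep regions in 16 hosts of the NF-κB list, 49 in 8 hosts of the C/EBP family and partner list, 43 in 12 hosts of the AP-1 and MAPK list, 19 in 4 hosts of the BCL2 family list or 263 in 49 hosts of the coactivator and chromatin list was called for the drug average. At an unadjusted p under 0.05 there were 3, 4, 5, 1 and 16, where 8.42% of all deep regions passed. Against genotype these lists had 6 higher and 4 lower, 3 and 2, 4 and 2, 2 and 1, and 20 and 22. Over all regions, 8.27% were called higher and 8.19% lower. BCL2, the antiapoptotic gene, had both of its list's gains. Its region at chr18:63185735-63188410 measured 0.498, 0 and 0.263 kb, 0.486, 0.404 and 1.20 kb in scramble cells and 1.40, 1.48 and 1.48 kb, 2.28, 2.54 and 1.93 kb in the knockout (1.39 ± 0.18, adjusted p = 0.000427). RUNX2, a partner of C/EBP factors, had 1 region lower (−1.87 ± 0.17, adjusted p = 3.27e-05) and 1 higher (1.42 ± 0.18, adjusted p = 0.000335). The cytoskeleton and adhesion list (47 hosts, 323 regions) had 42 higher and 58 lower, of which 21 lower ones lay in PTPRM. With the drug it had 4 higher and 1 lower, where 0.305% and 0.0825% of all regions were called. The genotype counts of all lists include regions with peaks in a single genotype, whose calls the rule fixed.

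Markers of other cell types were sparse. T cell markers had 13 deep regions in 6 hosts, with none called for the drug in limma (1 at an unadjusted p under 0.05) and 1 lower in the knockout. Myeloid markers had 6 in 4 hosts, with the MRC1 region higher for the drug and another MRC1 region higher in the knockout (0.90 ± 0.27, adjusted p = 0.0469), a call lost in 9 of 12 fits that left out a library. Mature B cell markers had 14 in 5 hosts, none called for the drug (2 at an unadjusted p under 0.05) and 2 lower in the knockout, in BLK (−0.84 ± 0.15, adjusted p = 0.00294) and CIITA (−0.41 ± 0.10, adjusted p = 0.0175). Stromal and epithelial markers had 18 in 5 hosts, none called for the drug (1 at an unadjusted p under 0.05) and 7 lower in the knockout, all in CDH2, the N-cadherin gene. The summed CDH2 regions measured 6.48 to 10.1 kb in scramble libraries and 0 in knockout libraries, so these 7 entered through scramble libraries alone. The part of cell mixture in these differences was not tested.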

How the data were processed

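The authors deposited 1 list of broad peaks per library, not pooled. Bowtie2 2.4.2, MACS3 3.0 and the hg38 build are named in the submitters' processing notes, with no role or order. No control library is named. Per the file headers' standard layout, as the values bear out, the deposited columns used were peak positions, fold enrichment (a ratio over background) and −log10 q; the deposited score, 10 times −log10 q, was read only for its range. Peaks on chromosomes 1 to 22 and X were merged into 103542 regions, of which 43630 had a peak in at least 6 libraries. Gene spans, starts and sequences came from RefSeq tables (19970 protein-coding genes, 15811 with a strand).

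Covered base pairs per region and library were taken as log2(bp + 500), quantile normalised and fitted with limma 3.58.1 (trended, robust) over all 43630 regions and 12 libraries, 1 mean per group, with Benjamini-Hochberg adjustment over all regions. Library-wide values were compared with exact permutation tests. Named regions were those of largest difference past an adjusted p of 0.05 per comparison (up to 8 per direction, 1 per gene), of highest fold enrichment or covered length, in the hosts with most regions, or of smallest p per gene list. Members and lists were chosen with earlier results of these data known. The code was tested on simulated data. Alternatives were fold enrichment, an offset of 100 bp, other normalisations, peaks with −log10 q of at least 2, equal covered length per library, thresholds of 3 or 9 libraries and of 5 or 25 kb, a replicate block, and leaving out each library. Presence and extent of a peak depend on sequencing depth, which is unknown, so a missing peak does not show absence of acetylation. Results for 2 host genes are not reported here, though their regions remain in all counts.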

Additional observations from a re-analysis of the deposited data

Results flagged for a closer look

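The response to dexamethasone differed between the knockout and scramble cells, by the interaction term of the limma fit, at 17 deep regions, of which 16 are given. The values are differences of log2 responses in covered length, knockout minus scramble. A larger response in the knockout was found in ADAM23 (2.01), PTPN3 (1.10), KCNQ5 (1.04), PARD3B (1.03), PTK2B (0.63) and SMYD3 (0.47). ADAM23 and KCNQ5 fell in scramble cells and rose in the knockout, PARD3B, PTK2B and PTPN3 fell in scramble cells alone by the test, and SMYD3 rose in the knockout, from 5.75, 5.71 and 5.82 kb to 7.66, 7.54 and 7.82 kb.

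The difference was negative in CRIM1 (−2.83), TMTC1 (−1.97), RSF1 (−1.92), TNFSF8 (−1.75), DOCK5 (−1.65), PXDN (−1.46), TXLNB (−0.92), IL16 (−0.81), B4GALT1 (−0.66) and AKNA (−0.64). At TMTC1 and DOCK5 no knockout library had a peak, so their values restate the scramble response and show no knockout response. At TXLNB the scramble libraries went from 1.28, 1.26 and 1.09 kb to 2.83, 2.73 and 2.94 kb, and all knockout libraries lay between 2.66 and 2.94 kb. At B4GALT1, a galactosyltransferase gene, the knockout went from 3.03, 3.05 and 2.96 kb to 1.79, 1.66 and 1.75 kb, and the scramble libraries stayed between 1.56 and 1.68 kb. The call for IL16 was lost in 11 of 12 fits that left out a library, for DOCK5 in 10 and for AKNA in 8. B4GALT1 was lost without scramble dexamethasone replicate 3 (adjusted p = 0.0515) or knockout DMSO replicate 2 (0.058).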

How the results depend on the processing

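Covered length shows extent, not height, and a peak's edge can move with depth, which is unknown. Of the values of single regions, 3059 kept direction and side of the threshold, 660 kept direction but lost the call and 40 changed sign.

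The 49 regions called for the drug in scramble cells became 129 (82 higher, 47 lower) with regions in 3 or more libraries, 24 with 9 or more and 22 with only the 6 libraries compared. The 26 in knockout cells became 40 with fold enrichment, 41 with an offset of 100 bp, 55 with strong peaks only, 89 with 3 or more libraries and 14 with 9 or more. The 56 of the drug average became 89 with fold enrichment, 96 with strong peaks, 97 with 3 or more libraries and 24 with 9 or more. The 17 differences of response became 50, 75 and 39 with fold enrichment, with strong peaks and with 3 or more libraries. With 9 or more libraries the genotype calls, 1729 under DMSO, 1887 under dexamethasone and 2589 on average, became 170, 169 and 556, with fewer regions tested. Of the average's calls still tested, 281 of 463 higher and 274 of 364 lower ones were made again. Leaving out 1 library gave 41 to 70, 19 to 39, 42 to 65 and 14 to 24 calls for the drug in scramble cells, in knockout cells, on average and for the difference, and 1440 to 1704, 1603 to 1874 and 2371 to 2547 for genotype.

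Replicate numbers did not pair the samples: same-numbered libraries of different groups had deviations correlated at −0.027 to 0.032, and 4 of 12 correlated best with their own number. With a replicate block the drug calls were 22 in scramble cells, 7 in knockout cells, 31 on average and 10 for the difference of responses, against 2502 for genotype on average.

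Library-wide shifts that crossed the threshold, exact permutation tests throughout, were as follows. Deep regions minus gene ends, drug effect: fold enrichment 0.185 with 3 or more libraries, covered length −24.25 bp beyond 5 kb. Genotype effect on that length: −30.5 bp beyond 25 kb and −11.25 bp with 9 or more libraries. Deep minus outside regions: presence −0.711 points beyond 25 kb; drug effect on presence −0.470 (strong peaks), −0.712 (25 kb) and −0.331 (9 or more libraries); drug effect on fold enrichment 0.0304 and genotype effect on length −15.0 bp with strong peaks. Leaving out 1 library gave 0.133 to 0.221 and −26.4 to −14.6 bp for the drug and −40.1 to −28.2 bp for genotype against gene ends, crossing without DMSO replicates 1 or 2, and 0.0103 to 0.022 and −15.2 to −8.25 bp for the drug against outside regions, crossing without knockout dexamethasone replicate 1 and knockout DMSO replicate 2.

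Sign changes with fold enrichment in place of length were, for the drug in scramble cells, TMTC1 −0.26, PTPN3 0.0813 and ADAM23 0.27; in knockout cells MSRA −0.0562, ANKRD28 −0.23, CRIM1 0.10, IL16 0.43, B4GALT1 0.13 and ABLIM1 0.0228; on average TMTC1 −0.13, ANKRD28 −0.30, B4GALT1 0.10, PARD3B 0.0643, PTK2B 0.33, SMYD3 −0.11, TXLNB −0.0825, ZBTB38 −0.0688 and MYH14 −0.12; for the difference TMTC1 0.26, PTPN3 −0.21, ADAM23 −0.43, IL16 0.72, B4GALT1 0.0738, PARD3B −0.0883, PTK2B −0.0822, SMYD3 −0.20, TXLNB 0.12 and AKNA 0.14. With strong peaks only they were TMTC1 −0.29, RAB40B 0.24 and PTPN3 0.049 in scramble cells, TMTC1 −0.14, PTPN3 0.0428, LIMS1 0.0292 and RSF1 −0.20 on average, and TMTC1 0.29 and PTPN3 −0.0124 for the difference. With equal covered length they were IL16 0.52 in knockout cells, SMYD3 −0.52 and AKNA 0.0439 for the difference. The cause was not tested.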

Other observations

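The deep regions of highest mean fold enrichment were short and present in all 12 libraries: SLC8A1 (10.6), ZNF148 (10.2), NOTCH2NLB (10.1), ZFP1 (9.91), ACYP2 (9.65), ELAPOR2 (9.53), WDR72 (9.45), HMCN1 (9.27), OCIAD1 (9.16) and ADGRV1 (9.14). NOTCH2NLB, which belongs to a family of near-identical gene copies whose reads are hard to place, ZFP1, ACYP2 and OCIAD1 hold a listed start. The SLC8A1 region, in a sodium-calcium exchanger gene, measured 0.68 to 0.906 kb. The longest region was in TRIO, chr5:14236776-14253161, with 10.6 to 14.7 kb in every library, followed by OGDH, a subunit gene of the oxoglutarate dehydrogenase complex, with 6.16 to 10.2 kb and IQSEC1 with 5.49 to 7.66 kb. Of the 10 longest, CAMTA1 was called for genotype, with 5.52 to 5.69 kb in scramble and 6.20 to 8.99 kb in knockout libraries (0.25 ± 0.07, limma adjusted p = 0.0277).

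The share of deep regions called for genotype varied by chromosome. Chromosome 13 had 23.7% of its 207 deep regions higher in the knockout and 5.31% lower. Chromosome 7 had 19.0% of 794 lower and 8.31% higher, and chromosome 20 had 19.0% of 358 lower and 6.15% higher. Chromosome 4 had 14.4% of 430 higher and 16.05% lower, and chromosome 18 had 16.4% of 414 higher and 15.2% lower. Over all regions, 8.27% were called higher and 8.19% lower. The shares by chromosome include regions with peaks in a single genotype, whose calls the rule fixed, so they support nothing by themselves. They were not tested.

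Of the microRNA hairpins in the RefSeq table, 36 lay within a deep region. In 5 of them (against 20% of all deep regions and 16.5% of all regions) the region was called for genotype in limma. These included MIR5694 in GPHN (8 libraries, log2 1.20, limma adjusted p = 0.0027), MIR4312 in ANP32A (10, 1.31, 0.0217) and MIR6090 in ETS1 (12, −0.29, 0.026). MIR628 in CCPG1 (log2 1.61) and MIR4802 in RBM47 (1.49) had peaks in only 6 libraries. The rule may have fixed their calls, so they are given by their values, with no test. For the drug, the smallest adjusted p among the 36 was 0.477.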
